A study of Mus musculus with 6 samples.

Results

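The genes described here encode the HSP70, HSP110 and HSP90 chaperones, the J proteins (DNAJ), the chaperonins and the co-chaperones that work with them. They were taken from the expression table by gene symbol alone: the Hspa, Hsp90a, Dnaja, Dnajb, Dnajc, Cct and Pfdn families, with Hsph1, Hspd1, Hspe1, Tcp1, Stip1, St13, Ahsa1, Cdc37, Bag1, Bag2, Bag5, Bag6, Hsf1 and Hsf2, and without the endoplasmic reticulum genes Hspa5, Dnajb9, Dnajb11 and Dnajc3. This gave 72 of 13931 genes. RNA had been sequenced from newborn (P0) mouse lenses, with 3 control and 3 Celf1cKO libraries of 2 pooled lenses each. Celf1 encodes an RNA-binding protein that acts on splicing, stability and translation of its target mRNAs. Celf1cKO mice carried a germline lacZ knock-in null allele (Celf1lacZKI) over a floxed allele (Celf1flox) that was deleted by Pax6GFPCre, a Cre expressed from the lens placode stage. The control genotype is Celf1lacZKI/+ in the labels, whereas the methods of the study name Celf1flox mice without Cre as the general control, so it is not certain whether the controls carried a null allele. All mice were of mixed C57BL/6J and FVB background. The comparison asks how the RNA levels of the folding machinery differ between Celf1-deficient and control lenses.

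Molecular chaperones bind unfolded or partly folded proteins and use ATP to help them fold, assemble or be handed to degradation. HSP70 proteins are loaded with clients by J proteins, which also stimulate their ATPase, and are reset by nucleotide exchange factors of the BAG and HSP110 families. HSP90 takes over clients from HSP70 through the adaptor Stip1, and the ring-shaped chaperonin TRiC folds actin and tubulin that prefoldin brings to it. Lens fiber cells lose their nuclei and organelles and keep their crystallins for life, and the lens transcription factor Hsf4 is a heat shock factor. Heat shock factors bind repeated nGAAn units in the promoters of many chaperone genes.

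Sequences are shown first because chaperone genes are known for a shared promoter motif and because CELF1 binds GU-rich RNA. Of the 72 genes, 57 matched a promoter window in RefSeq (GRCm38.p6), each 300 bases long and spanning the start site. The other 15 genes, which were not searched, were Cct4, Dnajc2, Dnajc5, Dnajc11, Dnajc12, Dnajc18, Dnajc30, Hsf1, Hsp90aa1, Hsp90ab1, Hspa8, Hspa9, Hspa13, Pfdn1 and St13. A 2-unit heat shock motif (GAANNTTC or TTCNNGAA, on both strands) was present in 13 of the 57 genes (22.8%), against 13.7% of the genes of the table and 15.1% of all promoters. The 3-unit motif (the same with a further unit, GAA or TTC, after another NN, so that units of opposite direction alternate, and which contains the shorter one) was present in 4 of the 57 genes (7.02%), against 0.573% of the genes of the table and 0.603% of all promoters. These 4 genes were Hsph1, Hspd1, Hspe1 and Dnajb6. Hspd1 and Hspe1 lie head to head, and the window of Hspe1 is shown for both. The windows of 3 of them are printed with every 2-unit and 3-unit match in capitals. In Hsph1 the first capital stretch is a 2-unit match only, and the 3-unit match is the second, which lies after the start site. Windows of Cct8 and of Dnajb2 follow, which were called elevated and reduced (below) and in which neither motif was found.
Hsph1 promoter, chr5:149636287-149636586 (- strand): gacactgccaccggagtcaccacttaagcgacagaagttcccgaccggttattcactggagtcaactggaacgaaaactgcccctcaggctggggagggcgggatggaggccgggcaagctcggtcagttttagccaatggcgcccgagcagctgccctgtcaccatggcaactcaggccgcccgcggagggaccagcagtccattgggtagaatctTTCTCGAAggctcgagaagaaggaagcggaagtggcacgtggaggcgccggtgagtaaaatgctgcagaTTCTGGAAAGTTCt
Hspe1 promoter, chr1:55087898-55088197 (+ strand): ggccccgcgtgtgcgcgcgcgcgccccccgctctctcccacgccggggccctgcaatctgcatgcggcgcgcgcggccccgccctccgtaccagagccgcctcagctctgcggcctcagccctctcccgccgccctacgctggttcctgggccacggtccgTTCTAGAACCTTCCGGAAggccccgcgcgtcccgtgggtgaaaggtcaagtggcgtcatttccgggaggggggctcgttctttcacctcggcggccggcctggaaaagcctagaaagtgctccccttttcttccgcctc
Dnajb6 promoter, chr5:29735648-29735947 (+ strand): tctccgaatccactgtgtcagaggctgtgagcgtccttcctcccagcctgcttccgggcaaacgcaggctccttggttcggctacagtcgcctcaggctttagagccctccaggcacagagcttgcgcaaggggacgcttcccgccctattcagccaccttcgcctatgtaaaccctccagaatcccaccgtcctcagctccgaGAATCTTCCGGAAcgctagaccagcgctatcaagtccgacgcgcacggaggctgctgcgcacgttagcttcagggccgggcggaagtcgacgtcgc
Cct8 promoter, chr16:87495820-87496119 (- strand): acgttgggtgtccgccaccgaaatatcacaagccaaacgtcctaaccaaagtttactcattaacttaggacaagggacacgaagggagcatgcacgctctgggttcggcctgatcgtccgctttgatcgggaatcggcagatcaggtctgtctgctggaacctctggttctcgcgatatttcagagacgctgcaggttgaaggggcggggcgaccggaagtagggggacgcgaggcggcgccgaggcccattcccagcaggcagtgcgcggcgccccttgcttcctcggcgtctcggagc
Dnajb2 promoter, chr1:75236173-75236472 (+ strand): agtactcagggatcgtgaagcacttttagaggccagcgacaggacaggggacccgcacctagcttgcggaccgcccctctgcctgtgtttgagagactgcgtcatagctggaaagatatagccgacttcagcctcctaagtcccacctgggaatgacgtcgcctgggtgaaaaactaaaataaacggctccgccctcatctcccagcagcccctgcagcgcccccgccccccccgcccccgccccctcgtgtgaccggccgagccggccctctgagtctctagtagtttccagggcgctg

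The 4 genes with the 3-unit motif had log2 fold-changes (Celf1cKO over control) of 0.23 (Hsph1), 0.13 (Hspd1), -0.08 (Hspe1) and 0.37 (Dnajb6), and none was called. Of the 4 called genes, only Cct8 and Dnajb2 had a window to search. A motif match describes letters in the window and does not show binding.

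For GU-rich sequence, the longest annotated 3′ UTR of each gene in GENCODE M21 (GRCm38) was searched on the transcribed strand, and 71 of the 72 genes had one. A GU-rich element of 11 bases (TGTTTGT followed directly by TTGT) was found in 2 of the 71 genes (2.82%), Dnajb14 and Dnajc6, against 4.27% of the genes of the table. The 7-base TGTTTGT, contained in the longer element, was found in 18 of the 71 (25.4%) against 30.0%. The share among the chaperone genes was thus below that of the whole table, and their UTRs were also shorter, with a median of 952 bases against 1207. Among the called genes, Cct8 had 3 copies of the 7-base sequence in a UTR of 662 bases, Dnajc12 had 1 in 2293 bases, Dnajc5 had 1 in 5757 bases and Dnajb2 had 0 in 1875 bases. Each copy is shown with the motif in capitals and the coordinates of the motif.
Cct8 3′ UTR, chr16:87483956-87483962 (- strand): taagagttgTGTTTGTagagtagaa
Cct8 3′ UTR, chr16:87483911-87483917 (- strand): tcttatttgTGTTTGTactctgctg
Cct8 3′ UTR, chr16:87483724-87483730 (- strand): gcttctaaaTGTTTGTtgtttatcc
Dnajc12 3′ UTR, chr10:63408365-63408371 (+ strand): aaaatgttgTGTTTGTgagttactc
Dnajc5 3′ UTR, chr2:181551958-181551964 (+ strand): gtaggtttcTGTTTGTgcccagtga
Neither of the genes with the long element passed the test, with log2 fold-changes of 0.18 for Dnajb14 (SE 0.11) and -0.04 for Dnajc6 (SE 0.10) and adjusted p-values from limma of 0.328 and 0.802. Dnajc6 encodes auxilin, which recruits HSP70 to uncoat clathrin vesicles.

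Values are log2 CPM (counted reads scaled to library size and by a further factor per library set by the authors). The libraries held between 40694454 and 44387151 counted reads. The factor was 0.941, 0.887 and 0.964 in Control 1, 2 and 3 and 1.055, 1.095 and 1.115 in Celf1cKO 1, 2 and 3. It was thus higher in every Celf1cKO library, which lowers the CPM of a read. With this factor, 3 reads corresponded to between 0.0609 and 0.0807 CPM. The fold-changes rest on this scaling unless another is named. Celf1 itself was at 9.95, 9.94 and 9.34 in the control libraries and at 8.93, 7.66 and 7.83 in the Celf1cKO libraries. It was reduced by limma (log2 fold-change -1.60, SE 0.33, adjusted p = 0.0269) and its level was highest in Celf1cKO 1 among the 3 Celf1cKO libraries. A gene was called when the adjusted p (Benjamini-Hochberg over all 13931 genes) was under 0.05, the log2 fold-change was beyond 0.58 in either direction and the average log2 CPM was above 1. Lens fiber markers (7 of 8 listed genes in the table) summed to 54498-66754 CPM in control and to 33656-39739 CPM in Celf1cKO libraries. Of these 7 genes, 5 had a log2 fold-change below 0 and 2 above (range -2.81 to 0.20). Lens epithelium markers (6 of 6) summed to 518-594 and 160-435 CPM, and all 6 were below 0. Endothelial markers (5 of 5) summed to 59.8-80.8 CPM in control lenses and to 78.8, 7.45 and 30.8 CPM in Celf1cKO 1, 2 and 3, whereas macrophage (4 of 5), retina (3 of 5) and pigment cell (5 of 5) markers stayed under 27.0 CPM and overlapped between groups. Only 1 of 5 red blood cell markers was in the table, at up to 1.35 CPM, and no corneal epithelium or muscle marker was in it. The part of these cell type differences in the results was not tested, and in whole lenses fewer cells of a type cannot be told apart from less RNA per cell.

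Of the 72 chaperone genes, 3 were called elevated (Dnajc12, Cct8 and Dnajc5) and 1 was called reduced (Dnajb2). Across the whole table, 4.77% of genes were called elevated and 2.63% reduced, so the share of chaperone genes called, 4.17% elevated, was near the background. Scaling by total counted reads instead raised the median of the more highly expressed genes by 0.23 on the log2 scale. With it, 10 chaperone genes were called elevated and 1 reduced, against 1663 and 204 genes of the whole table. Relative to that median, again 3 and 1 chaperone genes were called, against 594 and 373 genes of the whole table. Without the fold cut-off, 8 were higher and 2 were lower at an adjusted p under 0.05 (background 7.85% and 4.03%). The 3 Celf1cKO libraries lay wholly above the 3 control libraries for 21 genes and wholly below for 11, against 19.5% and 17% of all genes. Together these are 44.4% of the chaperone genes against 36.5% of all genes. Restricted to the genes that passed the expression cut-off, the groups did not overlap for 44.9% of 69 chaperone genes and 40% of 10640 genes, and 4.35% and 6.24% were called elevated. The median log2 fold-change of the 72 was 0.08 (range -1.06 to 1.58), with 41 above 0 and 31 below, beside medians of -0.04 over all genes and 0.00 over the 10640 more highly expressed genes (average log2 CPM above 1). Of the 72, 69 belonged to these. The exceptions were Cct6b, Dnajc28 and Hspa12a, and the lowest count in any library was 18 reads, for Cct6b.

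**Figure D1:**
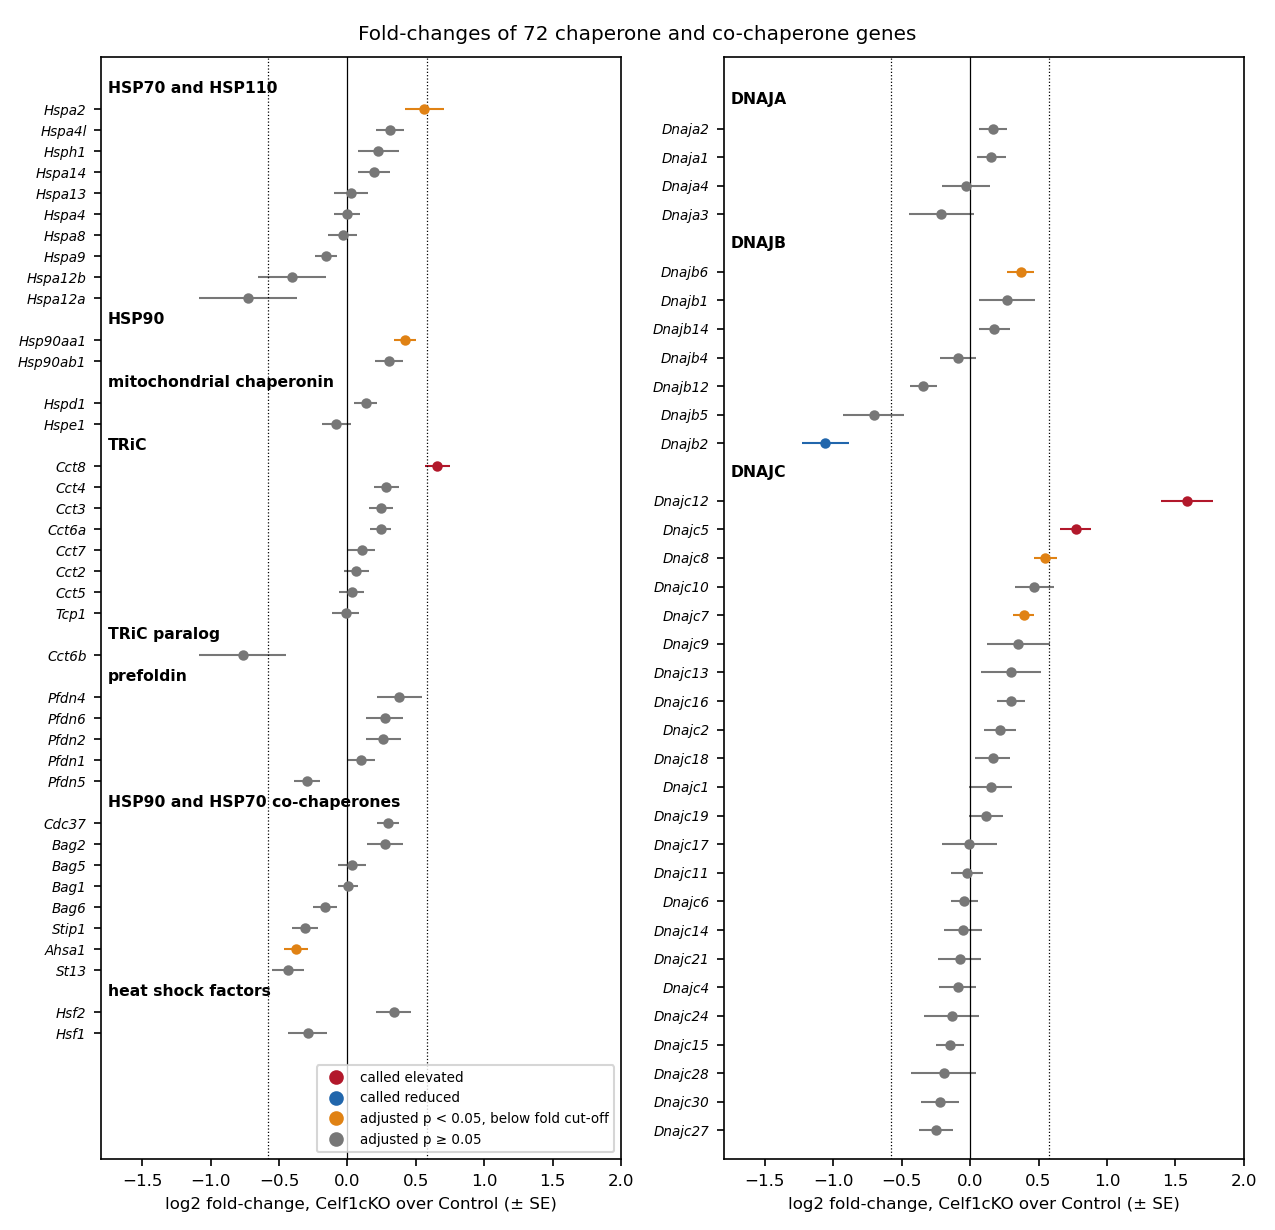
Log2 fold-change (Celf1cKO over control, x axis) of all 72 genes, ordered by family, with the standard error from limma as bars and the cut-offs of 0.58 as dotted lines. Most points lie between the dotted lines; Dnajc12 (1.58) and Dnajb2 (-1.06) are the extremes.

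The largest difference was that of Dnajc12, a J protein that binds the aromatic amino acid hydroxylases (chr10:63382443-63410576). Its level was 2.29, 2.03 and 2.03 log2 CPM in the control libraries and 3.37, 3.92 and 3.82 in the Celf1cKO libraries. All Celf1cKO libraries were above all controls. The difference was 3.0-fold (95% interval 2.20 to 4.09, log2 fold-change 1.58, SE 0.19, adjusted p = 0.0094 by limma). It remained a gene of low abundance, with 185 reads in Control 1 and 441 in Celf1cKO 1.

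Dnajc5 encodes the cysteine-string protein, a J protein of synaptic and other secretory vesicles (chr2:181520485-181555133). It was at 6.55, 6.30 and 6.18 log2 CPM in control lenses and at 7.01, 7.15 and 7.17 in Celf1cKO lenses, again without overlap. It was elevated 1.71-fold (95% interval 1.42 to 2.05, log2 fold-change 0.77, SE 0.11, adjusted p = 0.0120 by limma). The other vesicle and endosome J proteins were the auxilin gene Dnajc6, described above, and Dnajc13, which acts on early endosomes. Dnajc13 had 6.71, 7.24 and 7.12 log2 CPM in control and 6.86, 7.65 and 7.46 in Celf1cKO lenses, and these overlapped (log2 fold-change 0.30, adjusted p = 0.400 by limma).

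The single reduced gene was Dnajb2, whose protein HSJ1 binds ubiquitin and passes HSP70 clients to the proteasome (chr1:75236406-75245692). It was at 7.78, 8.02 and 7.54 log2 CPM in control lenses and at 7.03, 6.52 and 6.62 in Celf1cKO lenses. The Celf1cKO libraries were all lower, with Celf1cKO 1 nearest to the controls. The level was 0.481 of control (95% interval 0.366 to 0.631, log2 fold-change -1.06, SE 0.17, adjusted p = 0.0141 by limma). Per kilobase of exon it went from rank 15 to rank 26 among the 72 genes.

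**Figure D2:**
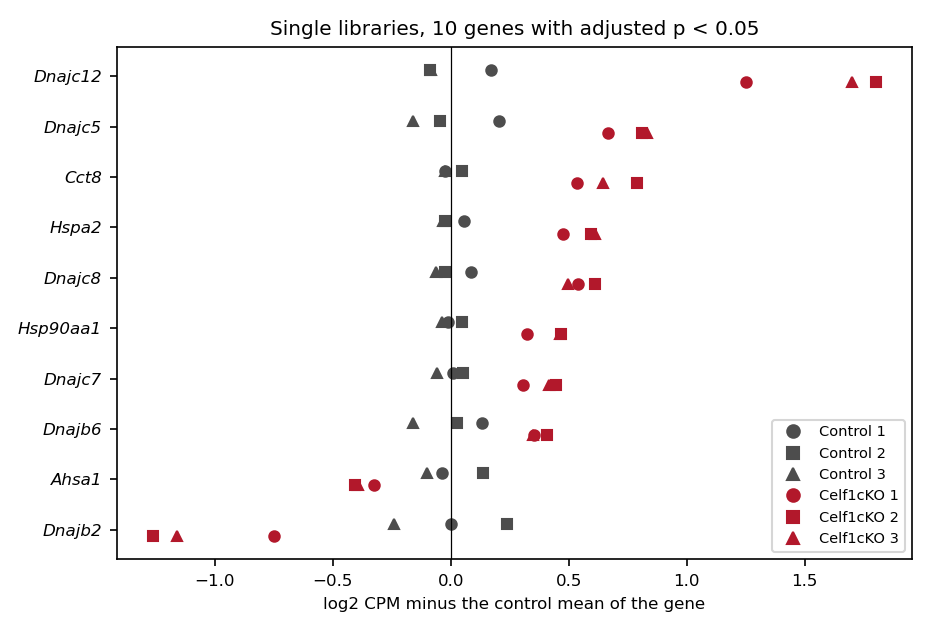
Level of the 10 chaperone genes with an adjusted p under 0.05, as log2 CPM minus the mean of the control libraries (x axis), with 1 symbol per library. Grey and red symbols do not overlap for any of the 10 genes, and Celf1cKO 1 (red circles) is the library nearest to the controls for most of them.

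Apart from these, the J proteins were mostly close to control. The 34 genes had a median log2 fold-change of 0.05, with 17 on each side of 0. None of the 4 Dnaja genes, which encode the cytosolic and mitochondrial class A J proteins, passed the test at an unadjusted p under 0.05 by limma or by limma voom. Dnaja1 (log2 fold-change 0.16), Dnaja2 (0.17), Dnaja3 (-0.21) and Dnaja4 (-0.03) had overlapping groups. 3 annotated pseudogenes share a long stretch with Dnaja1. Dnajb1, the stress-inducible partner of HSP70, spread more among the controls (7.30, 7.66 and 8.18 log2 CPM) than among the Celf1cKO libraries (7.87, 8.02 and 8.05). These overlapped (log2 fold-change 0.27, SE 0.20, adjusted p = 0.407 by limma).

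Some further J proteins passed the adjusted p but not the fold cut-off. Dnajc8, which associates with splicing factors, was at 5.59, 5.49 and 5.45 log2 CPM in control and at 6.05, 6.12 and 6.01 in Celf1cKO lenses (log2 fold-change 0.55, SE 0.08, adjusted p = 0.0135 by limma). Dnajc7, a tetratricopeptide protein that binds both HSP70 and HSP90, rose from 7.13, 7.17 and 7.06 to 7.42, 7.57 and 7.53 (log2 fold-change 0.39, adjusted p = 0.0239 by limma). Its exons overlap those of Cnp and Nkiras2 on the other strand. Dnajb6, which holds aggregation-prone proteins in solution, was at 6.00, 5.90 and 5.71 in control and at 6.22, 6.28 and 6.22 in Celf1cKO lenses (log2 fold-change 0.37, adjusted p = 0.0498 by limma), at the edge of the threshold. 5 annotated pseudogenes share a long stretch with Dnajb6.

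In the endoplasmic reticulum, Dnajc10 encodes a reductase of misfolded proteins. It was at 5.01, 5.28 and 5.21 log2 CPM in control and at 5.40, 5.88 and 5.64 in Celf1cKO lenses (log2 fold-change 0.47), and its adjusted p from limma was 0.0746 but 0.0284 in the fit blocked by replicate number. Dnajb12, a membrane J protein of the same organelle, was lower in every Celf1cKO library (5.54, 5.34 and 5.42 against 5.83, 5.84 and 5.66), but its adjusted p was 0.0626. The cytosolic Dnajb5 also lay lower in every Celf1cKO library, at 1.97, 1.33 and 1.39 against 2.29, 2.25 and 2.27 (log2 fold-change -0.70, adjusted p = 0.0835 by limma). Dnajc9, a J protein that handles histones, had a log2 fold-change of 0.35 with overlapping groups. None of the 5 mitochondrial J proteins passed the test, and none did so at an unadjusted p under 0.05 by limma or voom.

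Among the 10 HSP70 and HSP110 genes the median log2 fold-change was 0.01, a value whose sign depended on the scaling (-0.01 after centring on the median gene). Hspa8, the constitutive HSP70 and the second most abundant of the 72 genes per kilobase, was at 10.42, 10.42 and 10.51 log2 CPM in control and at 10.44, 10.55 and 10.26 in Celf1cKO lenses. The fold was 0.977 with a 95% interval of 0.823 to 1.16. 5 annotated pseudogenes share a long stretch with Hspa8. Hspa1a, Hspa1b and Hspa1l were not analysed here. Hspa2, an HSP70 best known from the testis, was at 2.47, 2.39 and 2.38 in control and at 2.89, 3.01 and 3.02 in Celf1cKO lenses (log2 fold-change 0.56, SE 0.14). Its adjusted p from limma was 0.0465 but 0.0574 in the fit blocked by replicate number.

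The mitochondrial Hspa9 had lower values in every Celf1cKO library (7.87, 7.79 and 7.73 against 7.97, 8.02 and 7.89), but the difference did not pass the test (log2 fold-change -0.16, adjusted p = 0.225). HSP110 proteins reset HSP70 by nucleotide exchange. Hspa4 had a log2 fold-change of -0.01 (95% interval -0.23 to 0.22), Hspa4l of 0.31 (adjusted p = 0.0951 by limma) and Hsph1 of 0.23 (adjusted p = 0.353). The Hspa4l groups did not overlap, while those of Hspa4 and Hsph1 did. Hspa13, a microsomal HSP70, and Hspa14, which sits at the ribosome, had log2 fold-changes of 0.03 and 0.19. The divergent members Hspa12a and Hspa12b were near the expression cut-off, with log2 fold-changes of -0.72 and -0.41 and overlapping groups. Hspa12b is known from endothelium, and its values of 1.73, 1.26 and 1.79 log2 CPM in control and 1.41, 0.91 and 1.23 in Celf1cKO lenses stand beside the endothelial sums given above.

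Of the 72 genes, Hsp90ab1 was the most abundant per kilobase of exon in both groups. Per kilobase of exon, Hsp90ab1, the constitutive HSP90 gene, made up 27.5% ± 0.619 (SD, n = 3) of the summed CPM of the 72 genes in control lenses and 30.9% ± 1.53 (SD, n = 3) in Celf1cKO lenses. Hsp90ab1 was at 11.30, 11.31 and 11.29 log2 CPM in control and at 11.50, 11.62 and 11.67 in Celf1cKO lenses. The Celf1cKO values were all higher, but the adjusted p was 0.0963 by limma (log2 fold-change 0.30, SE 0.10). Hsp90aa1, the stress-inducible HSP90 gene, was at 8.78, 8.84 and 8.75 in control and at 9.11, 9.26 and 9.25 in Celf1cKO lenses. It rose 1.34-fold (95% interval 1.17 to 1.53, log2 fold-change 0.42, adjusted p = 0.0216 by limma), below the fold cut-off. Within a library, the log2 CPM of Hsp90aa1 minus that of Hsp90ab1 was -2.52, -2.47 and -2.53 in control and -2.39, -2.36 and -2.42 in Celf1cKO lenses. 3 annotated pseudogenes share a long stretch with Hsp90aa1.

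The genes that assist HSP90 and HSP70 did not move as 1 group. Of the 8 co-chaperones, 0 were called and 1 passed the adjusted p without the fold cut-off, by limma and by limma voom alike. At an unadjusted p under 0.05 by limma, 1 was higher and 3 were lower, against 2268 and 1903 of all 13931 genes. The gene that passed was Ahsa1, the activator of the HSP90 ATPase, which was at 7.01, 7.19 and 6.95 log2 CPM in control and at 6.72, 6.64 and 6.65 in Celf1cKO lenses (log2 fold-change -0.38, adjusted p = 0.0378 by limma). Its exons overlap Gm47293 on the same strand. Stip1, the adaptor between HSP70 and HSP90, was at 7.0, 7.27 and 7.13 against 6.79, 6.78 and 6.90 (log2 fold-change -0.31, adjusted p = 0.0740). St13, the HSP70-interacting protein HIP, was at 8.28, 8.35 and 7.96 against 7.84, 7.72 and 7.72 (log2 fold-change -0.44). Its adjusted p was 0.0526 by limma but 0.0408 in the fit blocked by replicate number. Ahsa1, Stip1 and St13 therefore had control and Celf1cKO values that did not overlap, with the Celf1cKO values lower.

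In the other direction lay Cdc37, the HSP90 co-chaperone of protein kinases, at 6.28, 6.35 and 6.21 log2 CPM in control and 6.52, 6.61 and 6.60 in Celf1cKO lenses (log2 fold-change 0.29, adjusted p = 0.0544 by limma). The nucleotide exchange factors Bag1 (log2 fold-change 0.00), Bag2 (0.27), Bag5 (0.03) and the quality control factor Bag6 (-0.17) had adjusted p-values between 0.213 and 0.987. Of the transcription factors, Hsf1, the master regulator of the heat shock response, had a log2 fold-change of -0.29 with overlapping groups. Hsf2 was at 4.07, 3.84 and 4.17 against 4.27, 4.49 and 4.34, without overlap (log2 fold-change 0.34, adjusted p = 0.130).

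**Figure D3:**
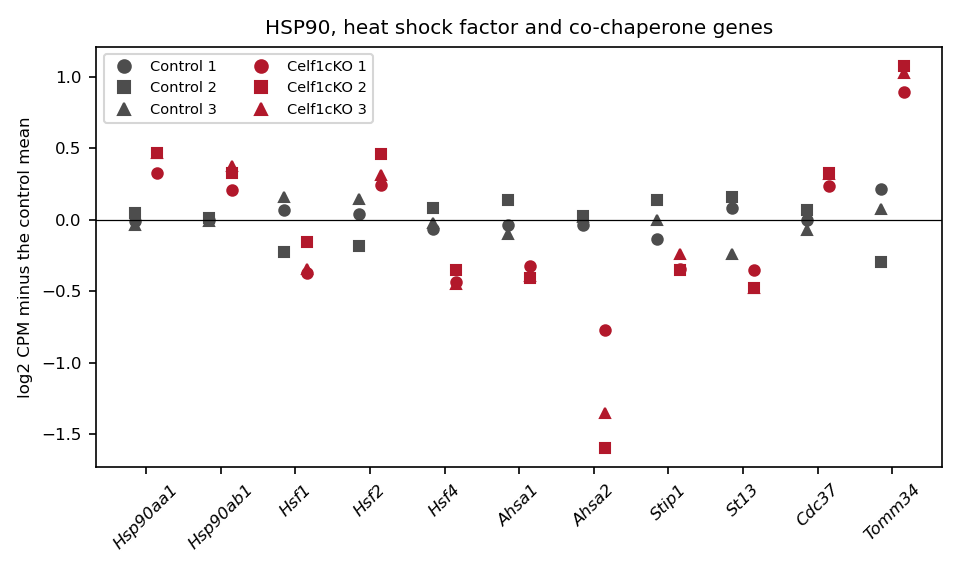
Level of HSP90, heat shock factor and co-chaperone genes as log2 CPM minus the control mean (y axis), with 1 symbol per library. Hsp90aa1, Hsp90ab1 and Cdc37 lie above 0 and Ahsa1, Stip1 and St13 below 0 in the 3 Celf1cKO libraries; Hsf4, Ahsa2 and Tomm34 belong to the wider chaperone list.

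TRiC is built from 8 different subunits in a double ring. Cct8, which encodes the theta subunit (chr16:87483326-87495873), was the only subunit gene called. It was at 8.23, 8.30 and 8.23 log2 CPM in control lenses and at 8.79, 9.05 and 8.90 in Celf1cKO lenses. The groups were far apart relative to their spread. Cct8 was elevated 1.58-fold (95% interval 1.36 to 1.83, log2 fold-change 0.66, SE 0.09, adjusted p = 0.0107 by limma). Its exons overlap those of Usp16 on the other strand.

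The other subunit genes differed less. Cct3, Cct4 and Cct6a lay higher in every Celf1cKO library, with log2 fold-changes of 0.25, 0.29 and 0.24 and adjusted p-values of 0.111, 0.0877 and 0.0765 by limma. Cct2 (0.07), Cct5 (0.03), Cct7 (0.10) and Tcp1 (-0.01) overlapped between groups. The 95% interval of the Tcp1 fold, 0.844 to 1.17, excludes the elevation measured for Cct8. Within a library, Cct8 minus the mean log2 CPM of the other 7 subunit genes was 0.02, 0.02 and 0.14 in control and 0.48, 0.66 and 0.61 in Celf1cKO lenses. The mean of the other 7 went from 8.19 ± 0.10 to 8.33 ± 0.05 (SD, n = 3 each). Per kilobase, Cct8 went from rank 8 to rank 4 among the 72 genes, and Cct5 held rank 3 in both groups.

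**Figure D4:**
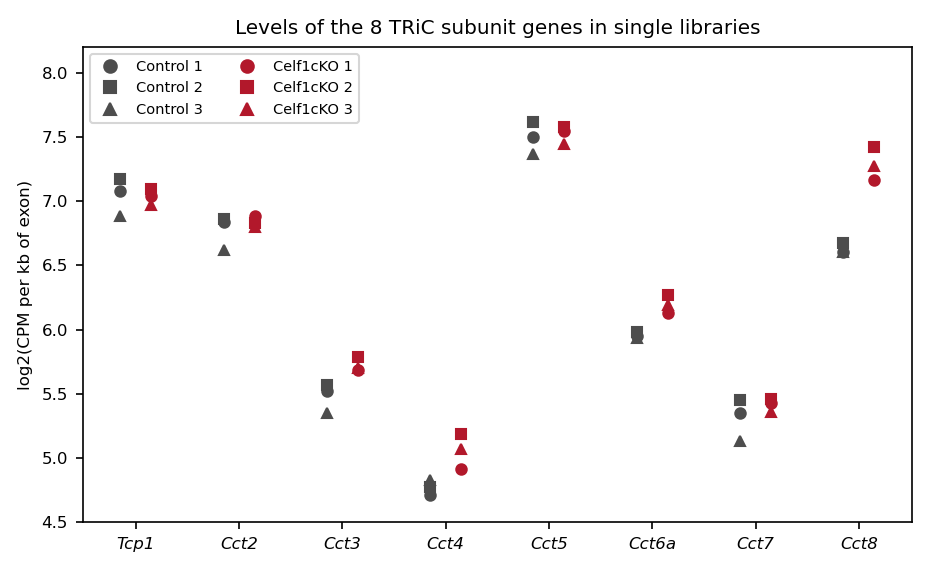
Level of the 8 TRiC subunit genes in each library, as log2 of CPM per kilobase of exon (y axis). Cct8 shows the widest gap between control (grey) and Celf1cKO (red) libraries, and the levels of the subunit genes span more than the difference between groups.

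Cct6b, the testis-enriched paralog of Cct6a, was near the detection limit, with 28 reads in control 1 and 18 in Celf1cKO 1, and had a log2 fold-change of -0.77 with an adjusted p of 0.153. The mitochondrial chaperonin is formed by Hspd1 (HSP60) and its lid Hspe1 (HSP10), and both overlapped between groups. Hspd1 had a log2 fold-change of 0.13 (95% interval -0.07 to 0.33) and Hspe1 of -0.08 (-0.33 to 0.17). 1 annotated pseudogene shares a long stretch with Hspd1.

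Prefoldin, which carries nascent actin and tubulin to TRiC, is made of 6 kinds of subunit, of which 5 are named Pfdn. Pfdn4 and Pfdn6 were higher in every Celf1cKO library (log2 fold-changes 0.38 and 0.27) and Pfdn1 and Pfdn2 overlapped (0.10 and 0.26). None of these 4 reached an adjusted p under 0.05 by limma (range 0.172 to 0.544) or by voom, and none an unadjusted p under 0.05 by either. Pfdn5, the most abundant subunit gene per kilobase, was at 7.66, 7.68 and 7.52 log2 CPM in control and at 7.48, 7.25 and 7.23 in Celf1cKO lenses. It was lower in every Celf1cKO library (log2 fold-change -0.30, adjusted p = 0.0886 by limma).

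The same pathway was followed in 36 other chaperone network genes. Of these, 6 were called elevated and 1 reduced, against 4.77% and 2.63% of all genes, with a median log2 fold-change of 0.16. The list was made with earlier results of these data known, so its share called is not independent of them. The elevated genes included Vbp1, the prefoldin subunit that does not carry the Pfdn name. It was at 4.72, 4.59 and 4.57 log2 CPM in control and at 5.27, 5.52 and 5.42 in Celf1cKO lenses (log2 fold-change 0.78, adjusted p = 0.0105 by limma). Of this list, only called genes, Hsf4 and the genes left out by the symbol rule are named here. The genes named thus do not stand for all partners of prefoldin and TRiC. Over the 36 genes, 24 log2 fold-changes were above 0 and 12 below. Further elevated genes were Uri1, Pdcl3 and Txndc9. Uri1, of the prefoldin-like complex, had a log2 fold-change of 0.65, and the phosducin-like TRiC partners Pdcl3 and Txndc9 had 0.70 each (adjusted p = 0.0187, 0.0288 and 0.0216 by limma). Their groups did not overlap.

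**Figure D5:**
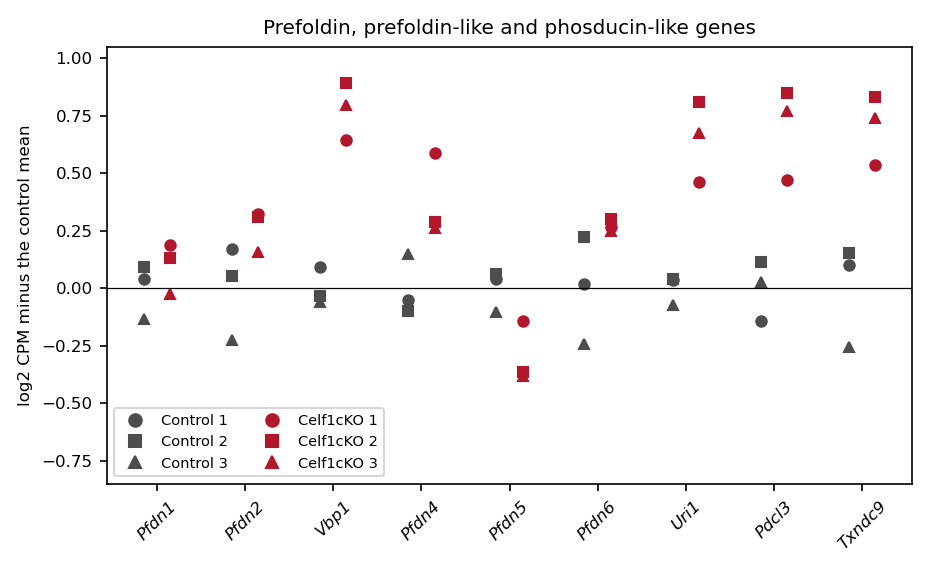
Level of the 6 prefoldin subunit genes (Pfdn1 to Pfdn6, with Vbp1 as the subunit between Pfdn2 and Pfdn4) and of the called genes Uri1, Pdcl3 and Txndc9, as log2 CPM minus the control mean (y axis). Vbp1, Uri1, Pdcl3 and Txndc9 lie above every control library in all 3 Celf1cKO libraries, whereas Pfdn5 lies below.

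Around HSP90, Tomm34, which links HSP70 and HSP90 to mitochondrial import, was at 4.22, 3.71 and 4.08 log2 CPM in control and at 4.90, 5.08 and 5.03 in Celf1cKO lenses (log2 fold-change 1.0, adjusted p = 0.0130 by limma). Ahsa2, the paralog of Ahsa1, was reduced from 5.62, 5.68 and 5.67 to 4.89, 4.06 and 4.30 (log2 fold-change -1.24, adjusted p = 0.0144 by limma). Both Aha1-type genes were thus lower in every Celf1cKO library. Hsf4, the heat shock factor of the lens, fell from 7.82, 7.98 and 7.87 to 7.46, 7.54 and 7.44 (log2 fold-change -0.41, adjusted p = 0.0210 by limma), below the fold cut-off. Of the endoplasmic reticulum genes left out by the symbol rule, Dnajb9 was elevated (log2 fold-change 1.11, adjusted p = 0.0187 by limma). It is counted among the 6 elevated genes of the wider list. Hspa5, the HSP70 of this organelle, overlapped between groups, at 8.04, 7.40 and 7.75 against 8.64, 7.75 and 7.93 (log2 fold-change 0.37, adjusted p = 0.354). Dnajb11 and Dnajc3 had log2 fold-changes of 0.15 and 0.43, and the adjusted p of Dnajc3 was 0.121 by limma but 0.0341 in the fit blocked by replicate number.

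A list of 12 textbook Hsf1 target genes had 10 genes in the table. Of these, 0 were called, and at an adjusted p under 0.05 Hsp90aa1 was higher and Ahsa1 was lower. At an unadjusted p under 0.05, 2 were higher and 2 were lower by limma, against 2268 and 1903 of all 13931 genes. Immediate early genes (6 of 7 in the table), which can rise during tissue handling, summed to 32.9-48.8 CPM in control and 40.7-45.1 CPM in Celf1cKO lenses, which overlapped. Their median log2 fold-change was 0.46, with 4 of the 6 above 0. Atf3 had an adjusted p of 0.0313 by limma (log2 fold-change 1.60) and an average log2 CPM below the cut-off for a call, and Junb was also higher in every Celf1cKO library (1.17, adjusted p = 0.0640). The part of these genes in the chaperone results was not tested.

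The 3 Celf1cKO libraries did not differ from control to the same extent. Where the groups did not overlap, Celf1cKO 1 was the library nearest to the control mean for 24 of 32 chaperone genes (75%), and for 67.2% of such genes in the whole table. Celf1cKO 1 also had the highest Celf1 level of the 3, as given above. Its summed lens fiber (39739 CPM), lens epithelium (435 CPM) and endothelial (78.8 CPM) markers were likewise the highest of the 3. Its scaling factor, 1.055, was the lowest of them. The part of each of these in the difference was not tested, and they cannot be told apart here. Without Control 2 or without Celf1cKO 3, 0 chaperone genes were called, and 1 gene of the whole table was called in each case. The highest adjusted p-values from limma in these fits were 0.0654 for Dnajc12, 0.0721 for Cct8, 0.0736 for Dnajc5 and 0.0778 for Dnajb2. Without Celf1cKO 1, 5 were called elevated and 2 reduced, against 1039 and 877 of all 13931 genes. Over the fits that left out 1 library each, the log2 fold-change of Dnajc12 ranged from 1.48 to 1.75, that of Cct8 from 0.59 to 0.72, that of Dnajc5 from 0.69 to 0.87 and that of Dnajb2 from -1.21 to -0.94.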

How the data were processed

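RNA-seq was analysed from 3 control and 3 Celf1cKO P0 lens libraries (strand-specific, paired-end). The authors aligned trimmed reads with STAR 2.7.8a to GRCm38.p6, counted them with featureCounts 2.0.0 and used edgeR. The strand setting of the counting is not given in the sources used here. The deposited values are log2 CPM, scaled per library by the authors. The table's columns of the authors' own comparison (fold-change, F, p and adjusted p) were not used, and 0 columns of single libraries were left out. All log2 CPM values worked back to whole reads (100%, tolerance 0.1).

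Groups were compared over all 13931 genes with limma 3.58.1 (R 4.3.3, variance trend, no block) and Benjamini-Hochberg adjustment. The fit was tested on simulated data with 200 changed genes. At a dispersion (spread of counts beyond sampling) of 0.01, 100% of genes changed by 1 or 2 log2 units were recovered, with 0% false calls. At a dispersion of 0.05, 60% of those changed by 1 and 100% of those changed by 2 were recovered, with 5.88% false calls. Smaller changes were not simulated. Alternatives were a replicate block, other variance priors, pseudocount, scalings, limma voom on the worked-back reads, other cut-offs and leaving out each library. Same-numbered control and Celf1cKO libraries deviated together (correlations 0.26, 0.39 and 0.38 over all genes, other pairs -0.39 to -0.01), so the samples may be paired by number. Among the 72 genes these correlations were 0.35, 0.26 and 0.04, and those of other pairs -0.34 to 0.17. Deviations from a group mean cancel within the group, so positive values of same-numbered pairs push those of other pairs down. The values of other pairs are thus not separate evidence of a pairing. Whether the numbers mark a pairing, and of what origin, is not given in the sources used here. Each library came from separately pooled lenses.

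Named were all called genes, those with adjusted p under 0.05, the members of the non-DNAJ family lists, the Dnaja genes, Dnajb1 and the 5 other Dnajb and Dnajc genes with the largest fold-change, and of the other chaperone network the called genes, Hsf4 and the excluded genes. Dnajb14 and Dnajc6 were added for their sequence motif. The genes and lists were chosen with earlier results of these data known. Levels per kilobase used GENCODE M21 exon lengths, and 13928 of 13931 identifiers matched. Exons overlapped a gene on the other strand for 24 of the 72 genes and on the same strand for 10, so their reads may be split. Of 71 genes compared by blastn 2.17.0, 13 share at least 200 bases at 95% identity with a gene elsewhere. Because only uniquely mapped reads were kept, reads from such stretches may be missing from the levels given here. Promoter sequences are from RefSeq.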

Additional observations from a re-analysis of the deposited data

How the results depend on the processing

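The calls of Dnajc12, Cct8, Dnajc5 and Dnajb2 were kept under every alternative except leaving out Control 2 or Celf1cKO 3 and, for Cct8 and Dnajc5, a log2 cut-off of 1. Elevated chaperone genes numbered 3 in most settings, 10 with total counted reads as the scale, 8 without a fold cut-off and 1 with a log2 cut-off of 1. Of all 13931 genes, 664 were elevated in the main fit, 1663 with total counted reads, 1045 without a fold cut-off and 219 with a log2 cut-off of 1. Scaling by total counted reads raised the median of expressed genes by 0.23, and relative to that median (an alternative chosen after seeing the data) the number was again 3. Leaving out single libraries gave 0 to 5, beside 1 to 1039 elevated genes in the whole table. Reduced genes numbered 1, 2 without a fold cut-off, 2 at an adjusted p under 0.1, and 0 to 2 with single libraries left out. In the whole table these numbers were 366, 505, 619 and 0 to 877. Of the other chaperone network 7 genes were called, 3 without the variance trend, 2 with a log2 cut-off of 1 and 0 to 8 with single libraries left out (0 without Control 2 or Celf1cKO 3, 2 without Control 3, 4 without Control 1 or Celf1cKO 2). Over all 13931 genes the called numbered 1030, 421 without the variance trend, 387 with a log2 cut-off of 1 and 1 to 1916 with single libraries left out. The Celf1 log2 fold-change was -1.60 without the variance trend, with an adjusted p of 0.0693, and ranged from -1.99 to -1.36 with single libraries left out, with an adjusted p above 0.05 for each library left out other than Celf1cKO 1, up to 0.108 without Celf1cKO 3. For the 6 chaperone genes with an adjusted p under 0.05 but below the fold cut-off, the highest adjusted p with a library left out lay between 0.0772 (Dnajc8) and 0.194 (Hspa2). The cause of these differences was not tested.

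With the replicate number as a block, 3 chaperone genes were called elevated and 1 reduced, against 756 and 523 of all 13931 genes. Of the other network 7 genes were called, and Celf1 was at -1.60. The block changed the side of the 0.05 threshold only for genes where the report gives that value. Over 64 named genes and 1024 values under alternatives, 38 had the opposite sign, none of them called. Family medians near 0 changed sign with the scaling: HSP70 and HSP110, the mitochondrial chaperonin and the heat shock factors under centring, quantile or crystallin-free scaling, and the co-chaperones and DNAJB genes with total counted reads. With limma voom 7 chaperone genes were higher and 2 lower at an adjusted p under 0.05, against 1049 and 595 of all 13931 genes.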
